A study of Mus musculus with 50 samples.

Results

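Ribosomal protein genes encode the protein part of the cytosolic ribosome and were taken here as a group of highly transcribed genes that are not known Polycomb targets. They were found in the RNA-seq table by name: symbols of the form *Rpl* or *Rps* followed by a number, alone or with a closing a, x or y that may carry a further digit, together with *Rplp0*, *Rplp1*, *Rplp2* and *Rpsa*. This gave 77 of the 18055 genes of the table, 46 of the large and 31 of the small ribosomal subunit. All 77 passed the filter on low values and 76 had a position in the mm9 annotation. *Rpl41* had none and appears only in the RNA data, and *Rps3a1* was placed through a synonym. The rule used names only, so no value below entered the choice of the genes.

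Each ribosome needs most of its proteins in equal numbers, and the genes of ribosomal proteins are transcribed by RNA polymerase II at a high rate in dividing cells. Most of these genes are short, with small exons, and have left many processed copies in mammalian genomes. Their mRNAs open with a pyrimidine tract, the 5′ terminal oligopyrimidine or TOP motif, through which translation follows mTOR signalling. H3K27me3, placed by the Polycomb complex PRC2 through its enzymes EZH2 or EZH1, marks silent developmental genes. H3K27me1 is known from the bodies of transcribed genes, H3K27me2 from regions between active genes, and H3K27ac from active promoters and enhancers.

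The data come from mouse embryonic stem cells (ESCs) of the E14 line, grown in serum with LIF and the 2 inhibitors of the 2i medium. The wild-type line (WT) was compared with 4 lines engineered by CRISPR/Cas9. *Ezh2* KO lacks *Ezh2* and keeps *Ezh1*. *Ezh1/2* dKO lacks both genes. *Ezh2* Y726D and *Ezh2* R685C carry a point mutation of *Ezh2* in cells that also lack *Ezh1*, and are named by the *Ezh2* allele. The study reports that Y726D leaves EZH2 without catalytic activity. Some samples of the Y726D line are labelled without the *Ezh1* knockout, and by the methods of the study they are the same line. Mutant lines were grown from screened clones, so a line and the clone it came from cannot be told apart. RNA-seq covered 4 of the lines, all but *Ezh2* R685C, with 2 libraries each. H3K27me1 and H3K27me2 ChIP-seq and ATAC-seq lists covered the same 4 lines, H3K27ac the 4 mutant lines, and SUZ12 and H3K27me3 all 5 lines, with 1 library for each line and target used here. Nothing in the labels says that the 2 RNA libraries of a line came from separate cultures, so their p-values measure only the spread between these libraries.

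The RNA libraries held between 3604123 reads, in WT replicate 1, and 5181553 reads. *Ezh2* stood at 0.824 to 1.78 normalised counts in the *Ezh2* KO and *Ezh1/2* dKO libraries, against 598 and 546 in WT, and *Ezh1* at 14.01 to 24.1 in the *Ezh1/2* dKO and *Ezh2* Y726D libraries, against 227 and 377. All 10 ESC markers of a fixed list were expressed, with summed levels of 14267 to 18121 normalised counts. Summed levels of the 5 fibroblast markers in the table were 12.0 and 4.81 in WT, 105.5 and 116.3 in *Ezh1/2* dKO and 88.3 and 86.1 in *Ezh2* Y726D. Of these sums *Thy1*, which cells other than fibroblasts also express, held 10.7 and 4.81 in WT, 88.2 and 101.2 in dKO, and 84.7 and 76.1 in *Ezh2* Y726D, and the other 4 markers reached at most 11.5. The 6 endoderm markers summed to 17.3 and 21.2 in WT, 131.9 and 156.3 in *Ezh1/2* dKO, and 60.6 and 44.7 in *Ezh2* Y726D. Of the dKO sums *Dab2* held 74.2 and 60.4, *Sox7* 25.6 and 61.3, *Gata4* 22.3 and 20.4, and *Gata6* 7.42 and 11.5. *Sox17* reached at most 2.89 and *Foxa2* at most 0.963 in any library, so the endoderm markers did not rise as a set. The 4 neural markers ranged from 34.5 to 190.0 over the libraries, the 3 mesoderm markers in the table from 39.7 to 181.2, and no marker in the table was at 0 in every library. The part of these markers in the values below was not tested.

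Short motifs were counted around the start sites, and a gene with several windows was counted if any of them matched. Of the 77 genes, 57 had a promoter window in RefSeq (GRCm38.p6), from 250 bases before to 50 bases after the start. A C followed by 4 or more bases of C or T began within 5 bases of the start in 24 of 57 genes (42.1%). Of all genes of the table with a window, 20.01% had such a tract. The letters CCGGAAG, which ETS-type factors are known to bind, stood on either strand in 24 windows (42.1%), against 15.9% of the windows of all genes of the table. TATAAA stood on either strand in 6 genes (10.5%), against 10.3%. These matches describe the letters of the windows and are neither mapped start sites nor binding sites. The 4 windows below, from 40 bases before the start to 20 bases from it on, belong to genes with a tract whose values are described in the sections that follow: a stalk protein, a target of growth signalling, an X-linked gene and the gene with the widest H3K27me2 cover of its body in WT. They are printed 5′ to 3′ on the strand of the gene, and the capitals mark the pyrimidine tract.
*Rplp2*, chr7:141447611-141447670, plus strand: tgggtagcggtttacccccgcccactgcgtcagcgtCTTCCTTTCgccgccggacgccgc
*Rps6*, chr4:86857348-86857407, minus strand: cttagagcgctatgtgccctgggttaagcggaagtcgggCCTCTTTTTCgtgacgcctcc
*Rpl39*, chrX:37085203-37085262, minus strand: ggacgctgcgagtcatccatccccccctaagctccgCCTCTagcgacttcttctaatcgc
*Rpl13a*, chr7:45128726-45128785, minus strand: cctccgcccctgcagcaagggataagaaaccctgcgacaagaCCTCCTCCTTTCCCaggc
The tract had 9 bases in *Rplp2*, 10 in *Rps6*, 5 in *Rpl39* and 14 in *Rpl13a*. Of the 4 genes, *Rplp2*, *Rps6* and *Rpl39* also had CCGGAAG in their 300-base window, and *Rpl13a* did not.

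Per length, ribosomal protein genes stood among the most abundant transcripts of WT ESCs. Their median was 1331 normalised counts per kb of the annotated coding transcript, against 477 for the other genes in the highest 10% of the table by WT level and 63.6 for all genes tested, and 69 of 76 lay in the highest 10% of all genes per kb. By plain normalised count, which favours long transcripts, 51 of the 77 were in the highest 10%. By the length of the chosen coding transcript, 68 of 76 lay within 2-fold of the median. The authors removed duplicate reads, and the part of this step in how close the levels lie was not tested. In the order of the levels, 70 of 75 neighbouring pairs overlapped in their WT libraries, so most neighbours could not be told apart. The 3 genes at the top were *Rpl22* (2337 ± 300.1 normalised counts per kb, SD, n = 2), *Rpl15* (2275 ± 205) and *Rps18* (2234 ± 382). The 3 at the bottom were *Rps15a* (147 ± 3.48), *Rps27* (98.9 ± 14.1) and *Rpl26* (46.3 ± 9.27).

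**Figure D1:**
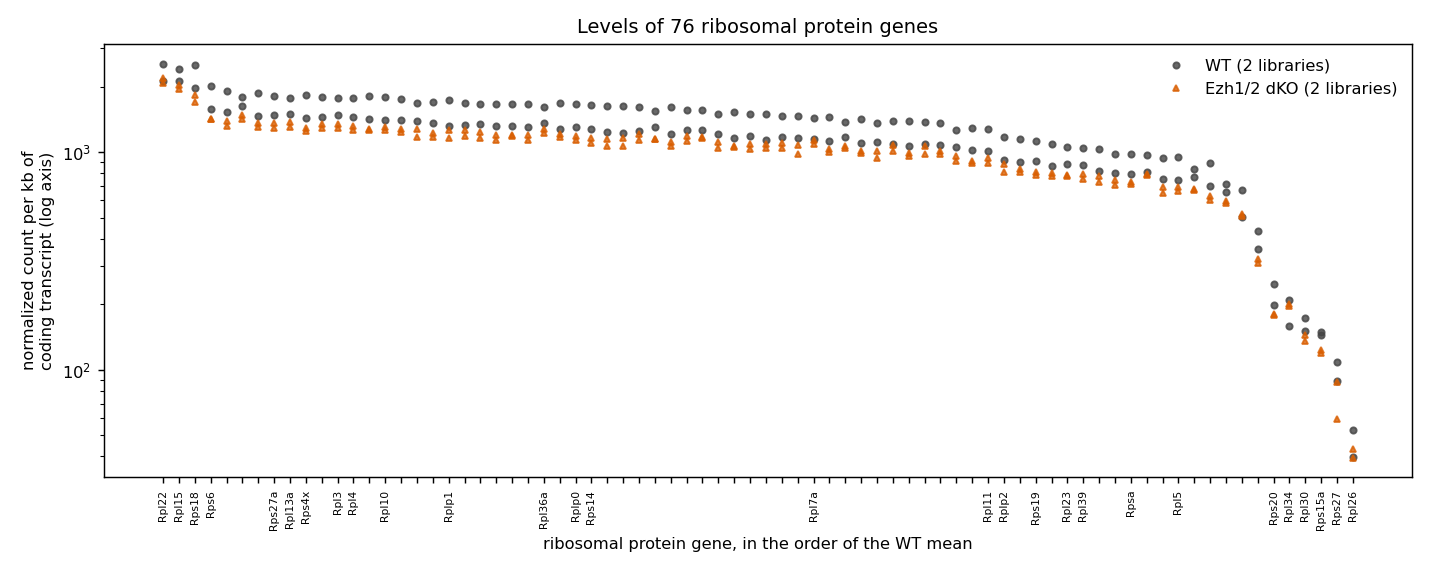
Normalised count per kb of coding transcript (log axis) of the 76 ribosomal protein genes with a length, in the order of the WT mean (ticks labelled for a selection of genes), with 1 point for each of the 2 WT and the 2 *Ezh1/2* dKO libraries. Most genes lie on a slowly falling line around the median of 1331, and the genes from *Rps20* on fall far below it.

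Both ends of this order depended on the annotation. The 3 top genes were those with more than 1 read per possible start position on the chosen transcript, and over all exons of the gene record they ranked 57, 28 and 59 of 76. By that length the median was 606 normalised counts per kb and *Rpl3* (1626), *Rpl4* and *Rpl8* led the order, with *Rpl26* last at 19.4. How close the levels lay to their median thus also depended on the length used. *Rps15a* was divided by a transcript of 3721 bases. *Rps27* had 30.7 and 37.6 normalised counts in WT, and 99.7% of the 50-base windows of its transcript had an exact copy elsewhere in the genome. *Rpl26* had 32.02 and 24.1, with 63.6% of such windows copied. The median over the 76 genes was 63.8%, with 51 genes at 50% or more, against a median of 0 for mitochondrial ribosomal proteins. The values of single genes are uncertain to the extent that reads of such windows could not be placed, which was not tested, while *Rpl13a* had no copied window.

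Between lines the question was whether genes not known as Polycomb targets keep their level when EZH1 and EZH2 are lost or inactive. No ribosomal protein gene was called in any of the 3 mutant lines with RNA (limma, adjusted p under 0.1 after Benjamini-Hochberg over 13872 genes), where 0.411% of all genes tested were called in *Ezh2* KO, 5.24% in dKO and 3.33% in *Ezh2* Y726D. In that order, 0.310%, 1.15% and 1.42% were called lower, and 0.404%, 4.02% and 2.72% were called with a change of 2-fold or more, again with 0 ribosomal protein genes. At an unadjusted p under 0.05 the counts were 0, 16 and 0, against 8.83%, 18.6% and 14.3% of all genes tested (4.70%, 6.62% and 6.81% lower), and edgeR and DESeq2 also called none. The dKO count of 16 depended on the setting: it was 2 after upper-quartile scaling, 1 after quantile normalisation, 3 with DESeq2, 19 with edgeR, 0 with the libraries of the 2 lines alone and without WT replicate 1, and 66 without WT replicate 2. The edgeR fit called 0.216%, 5.15% and 2.85% of the genes tested, and DESeq2 1.40%, 5.96% and 4.75%. The group nevertheless sat below WT in the double knockout, by a small and even amount. The median log2 fold change was −0.30 in dKO, −0.09 in *Ezh2* KO and −0.13 in *Ezh2* Y726D, where the median of all genes tested was 0.01, −0.01 and −0.01. The value was negative for 76, 71 and 73 of the 77 genes, in comparisons that share the WT libraries. RNA was taken from bulk cultures, in which fewer cells of a type and less RNA per cell cannot be told apart.

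The stalk proteins, which recruit translation factors to the large subunit, showed this pattern gene by gene. *Rplp0*, the base of the stalk, had 2256 and 1764 normalised counts in WT, 1921 and 1730.1 in *Ezh2* KO, 1539.7 and 1617 in *Ezh1/2* dKO, and 1705 and 1875 in *Ezh2* Y726D. The dKO libraries were the lowest 2 of the 8 and lay below both WT libraries, while *Ezh2* KO and *Ezh2* Y726D overlapped with WT. The log2 fold change of *Rplp0* in dKO was −0.34 (SE 0.14, limma with Benjamini-Hochberg, adjusted p = 0.244). *Rplp1* had 859 and 656 in WT, 732 and 656 in *Ezh2* KO, 578 and 622 in dKO, and 643 and 723 in *Ezh2* Y726D. *Rplp2* had 526 and 415 in WT, 451 and 419 in *Ezh2* KO, 364 and 396 in dKO, and 407 and 449.7 in *Ezh2* Y726D. These 2 pair up on the stalk, and the log2 fold changes in dKO were −0.32 (SE 0.16) and −0.30 (SE 0.17).

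*Rpl5* and *Rpl11* form the 5S particle with 5S rRNA and bind MDM2 when ribosome assembly is disturbed. *Rpl5* had 1942 and 1518 normalised counts in WT, 1643 and 1483 in *Ezh2* KO, 1359 and 1411 in dKO, and 1469 and 1611 in *Ezh2* Y726D. *Rpl11* had 1059 and 839.6 in WT, 912 and 825 in *Ezh2* KO, 746 and 783 in dKO, and 770.3 and 871 in *Ezh2* Y726D. In both genes WT replicate 1 was the highest of the 8 libraries and the dKO libraries did not overlap with WT. Their log2 fold changes in dKO were −0.31 (SE 0.14) and −0.30 (SE 0.15).

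Small subunit proteins followed. *Rps6*, phosphorylated by S6 kinase in response to growth signals, had 1765 and 1386 normalised counts in WT, 1531 and 1337 in *Ezh2* KO, 1241 and 1248 in dKO, and 1391 and 1472 in *Ezh2* Y726D. *Rps19*, mutated in Diamond-Blackfan anaemia, had 869.8 and 705 in WT, 785 and 686 in *Ezh2* KO, 606 and 625 in dKO, and 691 and 722 in *Ezh2* Y726D. For these 2 genes the log2 fold change in dKO was −0.33 (SE 0.14) and −0.35 (SE 0.15), and limma with Benjamini-Hochberg gave adjusted p = 0.259 and 0.253. *Rps14*, which lies in the region lost in the 5q- syndrome of humans, had a log2 fold change of −0.35 in dKO (SE 0.16). *Rpsa*, also known as the laminin receptor, had −0.29 (SE 0.14), and *Rps27a*, made as a fusion with ubiquitin, −0.30 (SE 0.15). All 31 small subunit genes were negative in dKO, with a median log2 fold change of −0.32. Both dKO libraries lay below both WT libraries for all 31. That also held for 24.5% of all genes tested and 1001 of the 1755 other genes in the highest 10%.

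Large subunit proteins ran from −0.37 to 0.12 in dKO, and small subunit proteins from −0.43 to −0.23. *Rpl3*, near the peptidyl transferase centre, had 2416 and 2011 normalised counts in WT, 2257 and 2001 in *Ezh2* KO, 1751 and 1826 in dKO, and 1939 and 2071 in *Ezh2* Y726D. *Rpl4*, which lines the exit tunnel, had 2532 and 2059.5 in WT, 2276 and 2041 in *Ezh2* KO, 1803 and 1879 in dKO, and 1998 and 2163 in *Ezh2* Y726D. The dKO libraries were again the lowest of the 8, with log2 fold changes of −0.30 (SE 0.13) and −0.31 (SE 0.13). *Rpl7a*, *Rpl13a*, *Rpl23* and *Rpl41*, the last encoding the shortest protein of the group, had log2 fold changes in dKO of −0.20, −0.28, −0.30 and −0.31. *Rpl22*, like *Rps15a* and *Rps27* and unlike the other genes, was lower in WT replicate 1, with 1007 normalised counts, than in replicate 2, with 1208. *Rpl22* had 1345 and 1093 in *Ezh2* KO, 1041 and 982 in dKO, and 1132 and 969 in *Ezh2* Y726D, and overlapped with WT in every line. The large subunit median in dKO was −0.30. Both dKO libraries lay below both WT libraries for 42 of 46 genes, against 24.5% of all genes tested.

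The 4 X-linked genes had median log2 fold changes of −0.07 in *Ezh2* KO, −0.30 in dKO and −0.13 in *Ezh2* Y726D. *Rps4x*, a small subunit protein, had 1650.2 and 1296 normalised counts in WT, 1452 and 1255 in *Ezh2* KO, 1136 and 1165 in dKO, and 1273 and 1339 in *Ezh2* Y726D. *Rpl10*, which joins the large subunit late in its assembly, had 1430.0 and 1125 in WT and 1007 and 1039 in dKO. *Rpl36a* had 729.7 and 613 in WT and 552 and 577 in dKO, and *Rpl39*, at the exit tunnel, had 638 and 531 in WT and 462 and 486 in dKO. All 4 lay below WT in dKO without overlap, as did 24.5% of all genes tested. Their log2 fold changes in dKO were −0.35, −0.31, −0.24 and −0.30.

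Across the group, both dKO libraries lay below both WT libraries for 73 of 77 genes, against 24.5% of all genes tested and 1001 of the 1755 other genes in the highest 10%. The exceptions were *Rpl22*, *Rpl26*, *Rpl31* and *Rpl34*. In *Ezh2* KO 0 genes lay below both WT libraries (17.6% of all genes tested), and in *Ezh2* Y726D 5 did (18.1%), which were *Rpl10a*, *Rpl12*, *Rpl23*, *Rps7* and *Rps29*. Above both WT libraries lay 0 genes in *Ezh2* KO (18.0%), 0 in dKO (28.0%) and 1 in *Ezh2* Y726D (19.0%). That gene was *Rpl34*, with 100.05 and 76.1 normalised counts in WT against 100.7 and 126 in *Ezh2* Y726D. *Rpl34*, also the gene with a positive value in dKO (0.12), has 64.04% of its windows copied elsewhere. At an unadjusted p under 0.05 all 16 dKO genes were lower, where 6.62% of all genes tested were, and the smallest adjusted p over the 77 genes was 0.244 in dKO (limma, Benjamini-Hochberg).

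**Figure D2:**
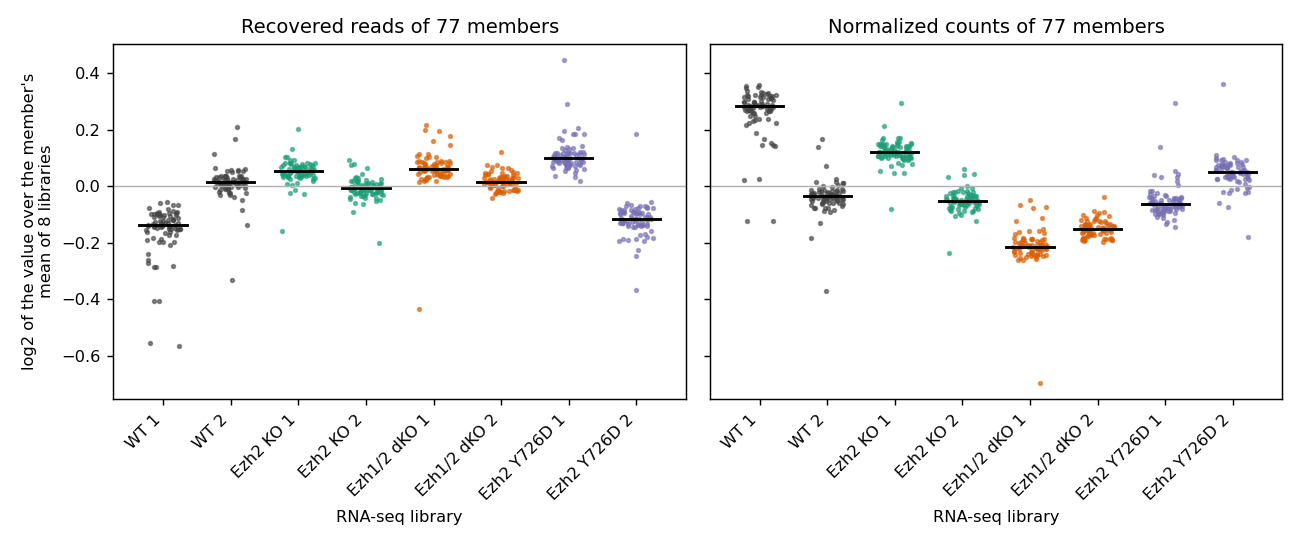
Log2 of each gene's value over its mean of the 8 libraries, for recovered reads (left) and normalised counts (right), with 1 point per ribosomal protein gene and a bar at the median of the 77. In reads, WT 1 and *Ezh2* Y726D 2 are lowest, and in normalised counts WT 1 is highest and both *Ezh1/2* dKO libraries are lowest.

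The distance to WT depended on WT replicate 1, the library with the fewest reads. The share of all reads in ribosomal protein genes was 1.72% (Wilson 95% interval 1.70% to 1.73%, counting error only) in WT replicate 1 and 1.496% (1.48% to 1.51%) in WT replicate 2. It was 1.63% and 1.47% in *Ezh2* KO, 1.39% and 1.42% in dKO, and 1.49% and 1.55% in *Ezh2* Y726D. Both dKO libraries were below the other 6. The means were 1.61% ± 0.157 in WT, 1.55% ± 0.113 in *Ezh2* KO, 1.40% ± 0.0234 in dKO and 1.52% ± 0.0401 in *Ezh2* Y726D (SD, n = 2). Exact two-sided permutation tests gave p = 0.667, 0.333 and 0.667, all 0.667 after adjustment over the 3 lines, and 0.333 is the smallest p that 2 against 2 libraries allow. Without WT replicate 1 the median log2 fold change was 0.07 in *Ezh2* KO, −0.15 in dKO and 0.03 in *Ezh2* Y726D, so the direction turned in *Ezh2* KO and *Ezh2* Y726D. Without WT replicate 2 it was −0.26, −0.46 and −0.29, with 9 genes called in dKO (limma, Benjamini-Hochberg), where 5.94% of the genes tested were called. After quantile normalisation the dKO median was −0.13.

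The reads behind these values varied less than the depth of the libraries. WT replicate 2 had 1.29 times the reads of replicate 1 but 1.12 times the reads in ribosomal protein genes. Over the 8 libraries the coefficient of variation of a gene was 5.99% in reads and 11.4% in normalised counts (medians of the 77), against 11.6% and 12.2% for the other genes in the highest 10% and 26.7% and 21.9% for all genes tested. The authors removed duplicate reads, so the number of reads was set beside the number of positions where one can begin, taken as both strands of the transcript. Ribosomal protein genes had a median of 0.608 reads per start position (range 0.0227 to 1.18, mean of the libraries), with 63 of 76 at 0.4 or more, against a median of 0.227 for the other genes in the highest 10%.

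Other genes changed in steps with the same measure. Below 0.01 reads per start position the other genes had a median ratio of 1.52 between the reads of WT replicates 2 and 1, and at 0.4 or more the median was 1.10 in 489 genes. The 63 ribosomal protein genes at 0.4 or more also had 1.10. In dKO the median log2 fold change of the other genes was 0.53 in the lowest bin and −0.23 in the highest, beside −0.31 for the ribosomal protein genes of that bin. In *Ezh2* KO the other genes of the highest bin had −0.09 and the ribosomal protein genes −0.09, and in *Ezh2* Y726D −0.11 and −0.13. The part of this measure in the dKO value was not tested.

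**Figure D3:**
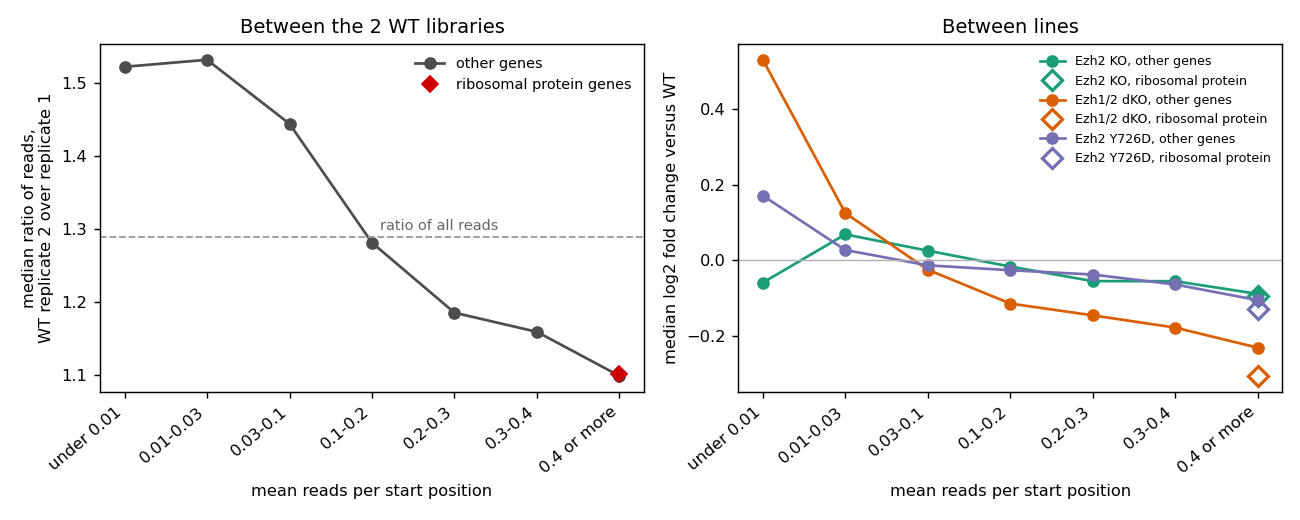
Left, median ratio of reads between the 2 WT libraries by mean reads per start position, for other genes (line) and ribosomal protein genes at 0.4 or more (diamond), with the ratio of all reads dashed at 1.29. Right, median log2 fold change from WT in the same bins for each line, where in *Ezh1/2* dKO the line falls from 0.53 to −0.23 and the diamond lies at −0.31.

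Genes with related roles were counted beside them. The 76 mitochondrial ribosomal proteins, which serve the separate ribosome of that organelle, had median log2 fold changes of −0.07 in *Ezh2* KO, −0.16 in dKO and 0.01 in *Ezh2* Y726D, with 0 called in each line. The 36 ribosome assembly genes, among them *Ncl*, *Npm1* and *Fbl*, had −0.10, −0.23 and 0.04, again with 0 called. For the 14 genes of RNA polymerase I, which makes the rRNA precursor, the medians were −0.02, −0.19 and −0.00, with 0 called. The 15 other mRNAs with a TOP motif, such as *Eef1a1* and *Eef2*, had −0.11, −0.24 and −0.10, and 0 were called. The other genes in the highest 10% had −0.08, −0.22 and −0.08. For the 11 paralogs and fusion genes of ribosomal proteins the medians were −0.12, −0.31 and −0.15. Their dKO median was thus as low as that of the ribosomal protein genes.

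Of the 11 paralogs and fusion genes, 2 were called, both lower in *Ezh2* Y726D. In that line 3.33% of all genes tested were called, and 1.42% were called lower. *Rpl39l*, the paralog of *Rpl39* that is best known from the testis, had 580.3 and 401.5 normalised counts in WT, 438 and 428 in *Ezh2* KO, 473 and 526 in dKO, and 182 and 217 in *Ezh2* Y726D. It fell in that line by 1.28 on the log2 scale (SE 0.20, limma with Benjamini-Hochberg, adjusted p = 0.0218). *Rpl10l*, a retrocopy of *Rpl10* also known from the testis, had 804 and 632 in WT, 508 and 571 in *Ezh2* KO, 494 and 591 in dKO, and 338 and 427 in *Ezh2* Y726D. It fell by 0.91 (SE 0.19, adjusted p = 0.0495 by the same test). Their parent genes *Rpl39* and *Rpl10* had −0.12 and −0.14 in *Ezh2* Y726D and were not called. Of the 50-base windows of the transcript, 26.3% had an exact copy elsewhere in *Rpl10l* and none in *Rpl39l*, so the division of reads with a parent gene is uncertain for *Rpl10l*.

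H3K27me1 covered little of the body of ribosomal protein genes in WT, while it covered most of the body in other highly expressed genes. The lists of the 4 lines had 9 chromosomes in common, which hold 51 of the genes. In WT, 10 of 51 gene bodies (19.6%) touched a region of H3K27me1 by at least 1 bp, against 76.1% of all genes and 94.1% of the other genes in the highest 10%. Short genes have less room for a region, and ribosomal protein genes had a median length of 3.24 kb against 24.0 kb for the other genes in the highest 10%. Among the 75 of those of at most 5 kb, which had a median length close to theirs (3.69 kb over all chromosomes), 52.0% touched a region. The mean share of the body covered was 3.26% in ribosomal protein genes and 28.9% in these short genes. The WT regions lay in *Rps28* (32.4% of the body), *Rpl13a* (26.4%), *Rpl18* (24.8%), *Rplp2* (16.2%), *Rpl26*, *Rpl10a*, *Rpl5*, *Rps15a*, *Rps19* and *Rps2*. No ribosomal protein gene was covered over 50%, while 76.8% of the other genes in the highest 10% were.

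The lists say where regions were called, not how much signal they held, and each line had 1 library, so differences between lines have no replicate check. Regions were listed at a threshold of 0.1 on p. The dKO line, which lacks both enzymes, gives the number called at that threshold without them: 13 of 51 ribosomal protein genes (25.5%), against 74.0% of all genes. In *Ezh2* KO 1 gene, *Rpl13a*, was touched, over 9.47% of its body, against 49.7% of all genes, 6.18% of the other genes in the highest 10% and 0 of 75 short ones. In *Ezh2* Y726D 36 of 51 (70.6%) were touched, against 83.9% of all genes and 68.0% of the short ones, and the median share of the body covered was 12.0%. The study reports that H3K27 methylation was lost in *Ezh2* Y726D as in dKO. The *Ezh2* Y726D count is thus also a number called at that threshold in a line reported to lack the mark. *Rpl12* (53.2%), *Rpl7* (44.2%), *Rpl9* (42.9%) and *Rplp2* (41.3%) had the widest cover in that line. At p of at most 0.01 the counts were 4 in WT, 0 in *Ezh2* KO, 1 in dKO and 0 in *Ezh2* Y726D, against 47.8%, 11.6%, 16.3% and 8.42% of all genes and 24, 0, 0 and 1 of the 75 short ones. Counted by the blocks inside the regions, 0 ribosomal protein genes were touched in any line, against 23.9% of all genes and 5 of the 75 short ones in WT.

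H3K27me2 was scarcer still in WT. Over 19 common chromosomes with 74 of the genes, 2 gene bodies (2.70%) touched a region in WT, against 74.3% of all genes, 42.3% of the other genes in the highest 10% and 15.9% of the short ones. These were *Rpl13a*, with 48.5% of its body covered, and *Rpl11*, with 23.2%. The same 2 genes were touched in *Ezh2* KO, at 4.12% and 19.2%. Both have long gene records, of 10.9 kb (chr7:52380928-52391787, mm9, minus strand) and 25.2 kb (chr4:135584180-135609343, minus strand), and over the coding transcript 1 gene was touched in WT and 1 in *Ezh2* KO. In dKO 39 of 74 (52.7%) and in *Ezh2* Y726D 40 of 74 (54.1%) were touched, against 83.3% and 85.5% of all genes and 38.1% and 53.2% of the short ones. At p of at most 0.01 the counts of genes touched were 0 in WT, 0 in *Ezh2* KO, 1 in dKO and 1 in *Ezh2* Y726D, against 16.6%, 32.4%, 14.1% and 15.2% of all genes. The dKO and *Ezh2* Y726D lists covered 622 and 610.0 megabases of the common chromosomes, against 356 in WT and 405 in *Ezh2* KO. With equal numbers of bases taken from each list, 2, 2, 16 and 15 genes were touched in WT, *Ezh2* KO, dKO and *Ezh2* Y726D, against 74.3%, 42.9%, 61.8% and 65.5% of all genes.

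Around the 5′ ends, the WT lists showed a gap in called regions over the gene, with called regions on both sides. Regions at this threshold were also called near starts in dKO and *Ezh2* Y726D, which the study reports to lack H3K27 methylation. In WT, H3K27me1 regions covered 59.0% of the bases 1.75 kb before the start of the 51 ribosomal protein genes, 2.51% of those 0.25 kb after it, 1.19% at 1.75 kb and 55.4% at 5.75 kb. In the 75 short comparison genes H3K27me1 covered 46.6%, 5.17%, 37.03% and 61.4% at the same distances, so the gap was narrower. Promoters reached into these flanks. Within 1 kb of a start, H3K27me1 regions were found at 21 of 51 ribosomal protein genes in WT (41.2%), 1 in *Ezh2* KO (1.96%), 13 in dKO (25.5%) and 32 in *Ezh2* Y726D (62.7%). The shares were 43.6%, 33.1%, 35.6% and 64.8% of all genes and 41.3%, 1.33%, 18.7% and 70.7% of the short ones. H3K27me2 regions were found at 10 of 74 in WT (13.5%), 1 in *Ezh2* KO (1.35%), and 37 each in dKO and *Ezh2* Y726D, against 49.9%, 39.4%, 51.2% and 59.95% of all genes and 26.2%, 3.97%, 39.7% and 45.2% of the short ones. With 1 kb added on each side of the body, the number of WT genes touched by H3K27me1 rose to 34 and by H3K27me2 to 13.

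**Figure D4:**
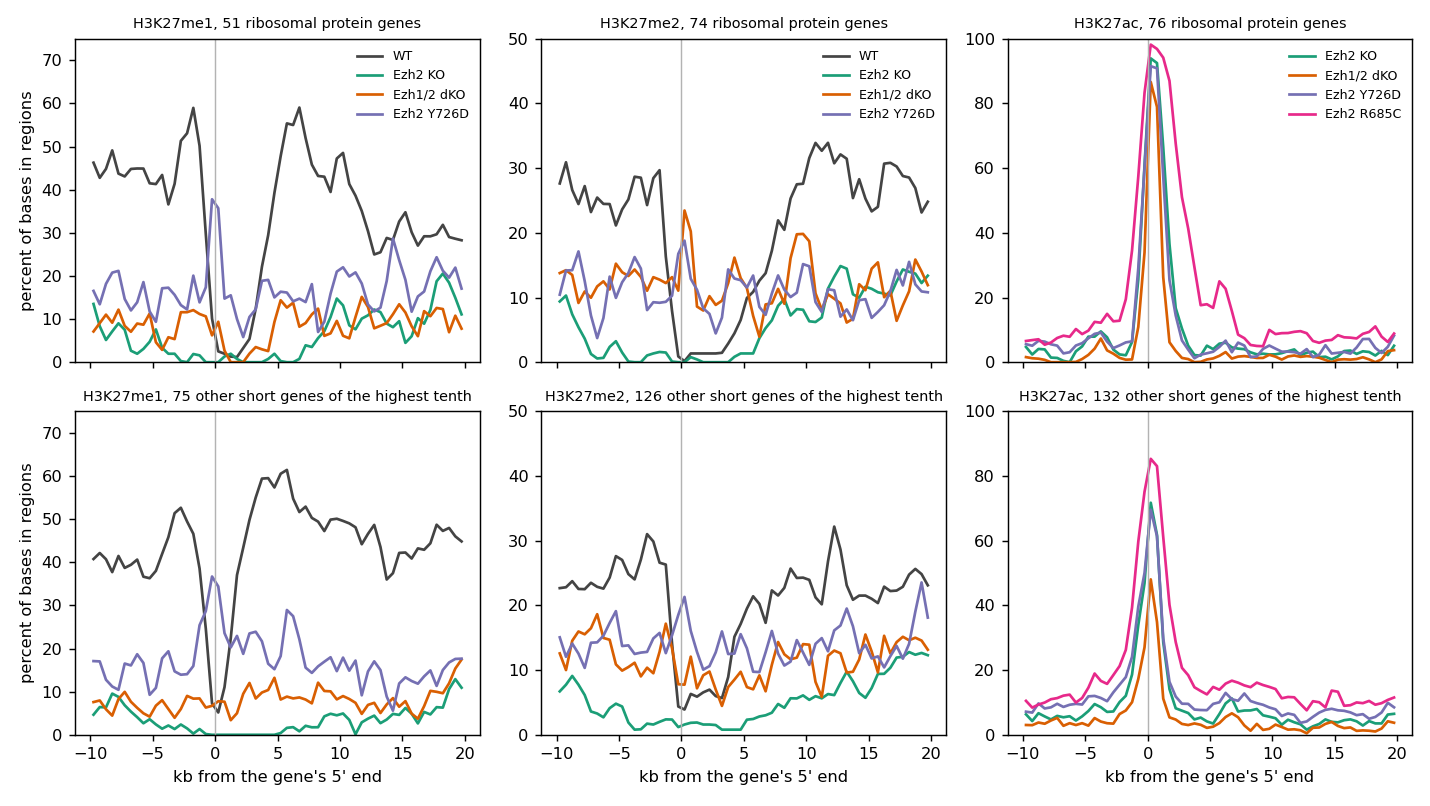
Percent of bases in regions or peaks by distance from the gene's 5′ end in 0.5 kb bins, for ribosomal protein genes (top) and other genes of at most 5 kb in the highest 10% (bottom), with 1 library per line. WT H3K27me1 drops from 59.0% before the start to 1.19% inside ribosomal protein genes and returns to 55.4% at 5.75 kb, while H3K27ac rises to its maximum just after the start in all 4 mutant lines.

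H3K27ac marked every ribosomal protein gene promoter in each mutant line measured. A peak of p at most 1e-10 lay within 1 kb of a start at 76 of 76 genes in each. Of all genes, 42.7% had such a peak in *Ezh2* KO, 31.6% in dKO, 53.2% in *Ezh2* Y726D and 53.2% in *Ezh2* R685C, and of the short comparison genes 88.6%, 74.2%, 88.6% and 94.7%. The peaks were among the strongest of their lists. The median −log10 p of the strongest peak was 55.2, 37.1, 53.4 and 76.3, at the median percentile 98.8, 97.3, 97.8 and 98.2 of the peaks of its own list. At p of at most 1e-20, 75, 68, 74 and 76 genes kept a peak, against 20.8%, 10.2%, 27.5% and 38.2% of all genes and 62.1%, 34.8%, 72.0% and 87.1% of the short ones. WT H3K27ac was not analysed here, so no change from WT is given.

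The peaks reached into the gene bodies. Their median width was 1.82 kb in *Ezh2* KO, 1.15 kb in dKO, 1.65 kb in *Ezh2* Y726D and 3.26 kb in *Ezh2* R685C. They covered a median of 46.3%, 29.6%, 45.4% and 84.7% of the body, against 26.8%, 11.9%, 25.3% and 43.9% in the short comparison genes. *Rpl27a*, of the large subunit, had −log10 p of 118, 98.5, 122 and 141 in *Ezh2* KO, dKO, *Ezh2* Y726D and *Ezh2* R685C, the highest of the group in all lines but dKO, where *Rpl3* had 99.5. *Rplp1* was covered over 82.8%, 83.0%, 70.4% and 100% of its 1255 bases. *Rps29*, with −log10 p of 15.98 in *Ezh2* KO, and *Rpl10*, with 11.3 in dKO, had the weakest peaks of those lines. The dKO list was the shortest, with 17618 peaks against 25483 to 41185 in the others, and the depth behind a list is not known. The part of the length of the list in the lower and narrower dKO peaks was not tested.

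X-linked genes stood at the low end. The median −log10 p of *Rps4x*, *Rpl10*, *Rpl36a* and *Rpl39* was 24.9 in *Ezh2* KO, 14.5 in dKO, 25.9 in *Ezh2* Y726D and 46.3 in *Ezh2* R685C, against 56.5, 39.9, 54.1 and 78.7 for the 72 autosomal ribosomal protein genes. Genes of the X chromosome as a whole had fewer peaks. Of all X-linked genes 19.8%, 10.9%, 27.1% and 36.1% had a promoter peak in the 4 lines, against 43.7%, 32.4%, 54.3% and 53.9% of the genes elsewhere. None of the 4 X-linked ribosomal protein genes touched an H3K27me1 region in any line, where 53.5% of all X-linked genes did in WT, 25.4% in *Ezh2* KO, 16.7% in dKO and 23.9% in *Ezh2* Y726D. These 4 genes had a median length of 2.65 kb, against 18.3 kb for all X-linked genes. Few ribosomal protein genes on the other chromosomes were touched in WT or *Ezh2* KO either, while most were in *Ezh2* Y726D.

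**Figure D5:**
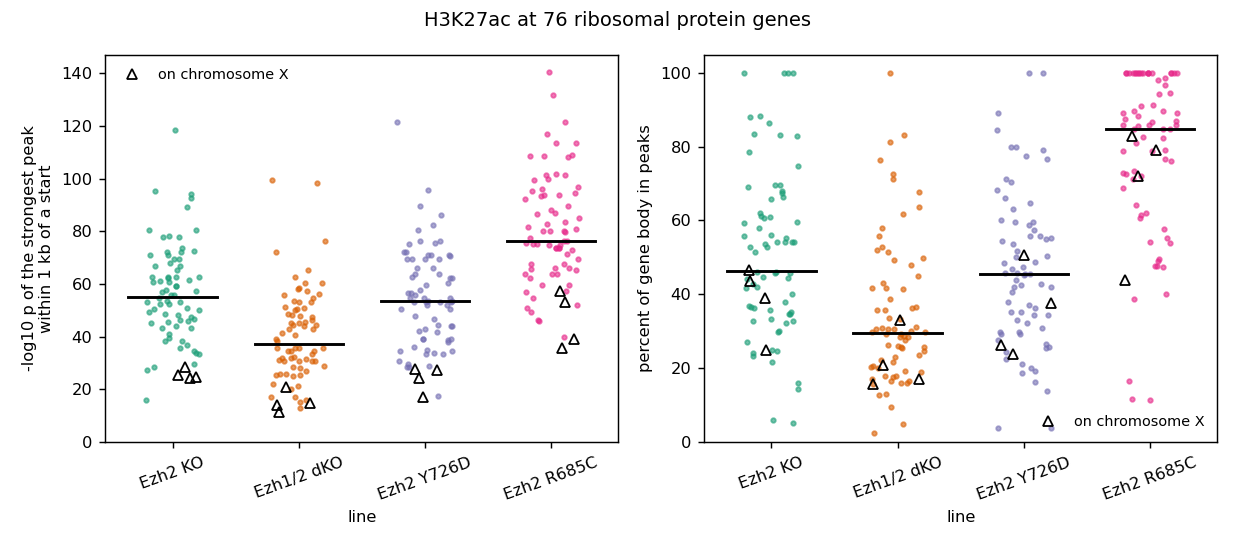
−log10 p of the strongest H3K27ac peak within 1 kb of a start (left) and percent of the gene body in peaks (right) for 76 ribosomal protein genes in 4 lines, 1 library each, with bars at the medians and triangles for the 4 X-linked genes. All genes have a peak, the medians are lowest in *Ezh1/2* dKO (37.1 and 29.6%), and the triangles on the left lie near the bottom of each line.

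As a check of these genes as non-targets, SUZ12, a core subunit of PRC2, had a peak within 1 kb of a start at 0 of 76 genes in WT, *Ezh2* KO, dKO and *Ezh2* R685C, where 15.6%, 4.43%, 0.844% and 8.59% of all genes had one. In *Ezh2* Y726D 1 gene had a peak, *Rpl7*, against 10.5% of all genes. The *Rpl7* peak lay 0.809 kb from the start, with −log10 p of 11.7, the 20.6 percentile of its list. H3K27me3 was found at 1 gene in WT, *Rpl13a*, against 17.9% of all genes, with −log10 p of 10.1 at the 0.543 percentile of the list, and at 0 genes in the other 4 lines. Of all genes 15.0% had a peak in *Ezh2* KO, 0.0689% in dKO, 0.270% in *Ezh2* Y726D and 23.3% in *Ezh2* R685C, so the dKO and *Ezh2* Y726D lists, with few peaks at any gene, say little of these genes. In WT, regions of all 3 methylation states lay on or within 1 kb of the long gene record of *Rpl13a* (10.9 kb). The H3K27me3 peak lay 0.395 kb from the 5′ end of that record, and which of its annotated starts is used was not tested. ATAC-seq measures open chromatin, and its regions were listed at a threshold of 0.1 on p. Such regions lay within 1 kb of a start at 76 genes in WT and *Ezh2* KO. They lay at 75 in dKO, where *Rpl31* had none, and 75 in *Ezh2* Y726D, where *Rpl12* had none. Between 96.6% and 96.8% of all genes had such a region, and the WT list held 769948 regions summing to 619 megabases. The ATAC-seq lists thus did not set these genes apart, and a single missing region carries little weight.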

How the data were processed

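Single-end RNA-seq reads were aligned by the authors to mm9 with TopHat, freed of duplicates with PICARD, counted with HTSeq-count without regard to strand, and scaled with DESeq2. What was deposited is, for every gene in every library, a normalized count (unit: signal), the reads over that library's size factor. Of the values above 0, 100% were whole multiples of 1 read, to within 0.01 reads, so reads could be recovered. ChIP-seq and ATAC-seq reads were aligned by the authors with Bowtie to mm9, unique alignments kept, duplicates removed and peaks called with MACS2. The deposited lists give positions and the −log10 p of each peak against its own background, and the depth behind them is not in the files. The lists carry no spike-in scaling. The deposited comparisons with WT (the authors' fold changes and p-values) were not used.

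The values were tested with limma 3.58.1 in R 4.3.3, as a linear fit with a trend on log2(normalized count + 1) over all 8 libraries, in the 13872 genes whose normalized counts averaged 5 or more, so fold changes of low genes are understated. Benjamini-Hochberg adjustment ran over all genes tested, and genes with an adjusted p under 0.1 were called. edgeR 4.0.16 and DESeq2 1.42.0 on the recovered reads were alternatives. Peak lists were read with Python 3.11.15, numpy 2.4.6 and pandas 2.3.3, statistics used scipy 1.17.1 and figures matplotlib 3.10.9. SUZ12, H3K27me3 and H3K27ac peaks were used at p of at most 1e-10, and H3K27me1, H3K27me2 and ATAC-seq regions as listed, to a threshold of 0.1 on p. Gene positions are those of GENCODE for mm9, a promoter is 1 kb around any annotated start, and lengths are those of the coding transcript. Scripts were tested on simulated data.

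Genes were named by a rule: fixed genes by role, the 3 highest and 3 lowest per kb in WT, called genes, and genes with a SUZ12 or H3K27me3 peak at the promoter or without H3K27ac. *Rpl34*, *Rpl27a*, *Rps29*, *Rpl9*, *Rpl12*, *Rpl18*, *Rps20*, *Rps28* and others listed with them got their place in the text once their values were known. The genes and lists were chosen with earlier results of these data known. Replicates with the same number did not deviate together: correlations between lines ran from −0.41 to 0.29 over 6 pairs of lines, so numbers were not used as pairs. Not analysed here were RING1B, H2AK119ub, HA, WT H3K27ac, input, the rescue lines and the DMSO and MG132 samples.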

Additional observations from a re-analysis of the deposited data

How the results depend on the processing

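Calls did not depend on pseudocount, filter, scaling or tool: 0 ribosomal protein genes were called in any line with a pseudocount of 0.5 or 4, no filter, a mean of at least 20, upper-quartile or quantile scaling, edgeR, DESeq2, or the libraries of the 2 lines alone. The replicate block also gave 0 calls in each line, with medians of −0.09, −0.30 and −0.13 as before, with 1 gene at an unadjusted p under 0.05 in dKO, in place of 16. Of all genes it called 34, 658 and 392, in place of 57, 727 and 462. Without 1 dKO library 5 or 3 genes in all were called in dKO. Leaving out 1 library at a time moved the median log2 fold change from −0.26 to 0.070 in *Ezh2* KO, −0.46 to −0.15 in dKO and −0.29 to 0.034 in *Ezh2* Y726D, and calls in dKO from 0 to 9. The share of reads, in percentage points from WT, moved from −0.166 to 0.0554, −0.313 to −0.0914 and −0.196 to 0.0253. It turned positive in *Ezh2* KO without WT replicate 1 (0.0554) or *Ezh2* KO replicate 2 (0.0249), and in *Ezh2* Y726D without WT replicate 1 (0.0253). The medians that turned positive without WT replicate 1 were 0.070 and 0.034. Quantile normalisation gave −0.13 in dKO. The cause was not tested. Over 1134 values of named genes the sign changed in 78, of which 46 were without WT replicate 1. With the length of all exons, chosen after seeing the data like the coding transcript, the median was 606 normalised counts per kb and 0.279 reads per start position.

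Counts of bodies touched, in the order WT, *Ezh2* KO, dKO and *Ezh2* Y726D, were as follows. For H3K27me1 they were 0 in each line by the blocks of the regions, 4, 0, 1 and 0 at p of at most 0.01, 6, 1, 13 and 34 with equal bases, 9, 1, 5 and 24 from 1 kb after the start, 34, 1, 21 and 37 with 1 kb on each side, and 6, 1, 11 and 35 over the coding transcript. For H3K27me2 they were 0 by blocks, 0, 0, 1 and 1 at p of at most 0.01, 2, 2, 16 and 15 with equal bases, 13, 2, 50 and 48 with 1 kb on each side, and 1, 1, 35 and 35 over the coding transcript. By blocks, ATAC-seq gave 4, 4, 3 and 2 promoters. Within 5 kb, SUZ12 gave 1 gene in WT and H3K27me3 gave 2 in WT, 1 in *Ezh2* KO and 2 in *Ezh2* R685C, and within 500 bp SUZ12 gave 0 in *Ezh2* Y726D. The blocks and the stricter p leave fewer regions by construction.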
